A study of Arabidopsis thaliana with 6 samples.

Results

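The aquaporin family of Arabidopsis thaliana was followed in whole seedlings of sqtl1 RNA interference (RNAi) plants, labelled as Col-0 in background, and in those of Col-0 itself, the reference wild type. Each group held 3 biological replicates, and both were collected 7 days after stratification from the same medium, MS salts at reduced strength with sucrose and agar under long days. Members were the rows annotated as mRNA whose description names an intrinsic protein, an aquaporin or NOD26, which gave 37 of 38194 genes. They fell into 13 plasma membrane intrinsic proteins (PIPs), 9 tonoplast intrinsic proteins (TIPs), 9 NOD26-like intrinsic proteins (NIPs), 3 small basic intrinsic proteins (SIPs) and 3 short genes described only as aquaporin-like. The RNAi group is 1 line, so an effect of the silenced gene and another property of the line cannot be told apart. The sample names of the RNAi plants carry a mark, sh1, that the labels do not explain. Which locus was silenced is not named in the labels, and the knockdown was not analysed here.

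Aquaporins are membrane channels that let water, and in some members small neutral solutes, move along their gradients. PIPs set the water permeability of the cell surface, and PIP1 proteins commonly reach that membrane in company with PIP2 proteins. TIPs sit in the membrane around the vacuole, where they allow fast water exchange as cells elongate, and several also pass ammonia or urea. NIPs include the boric acid channels of roots and shoots and channels for arsenite and other metalloids, and SIPs are found in the endoplasmic reticulum.

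The groups differ at the pair of short pore motifs whose standard form is asparagine, proline and alanine (NPA). All 13 PIPs and all 9 TIPs carried NPA at both places in the coding sequence of RefSeq TAIR10.1. Among the NIPs, the first motif ended in serine in place of alanine (NPS) in 2 of 9, and the second ended in glycine (NPG) in 2 and in valine (NPV) in 2. The first motif differed from NPA in all 3 SIPs. The windows below, each 27 bases of coding strand with the motif codons in capitals, come from the member with the highest mean level of each group. NIP5;1 was the highest NIP by the mean over all libraries, although not in Col-0 alone. It departs from NPA at both motifs, and the second motif of SIP1A is left out because it spans an intron.
PIP2A first motif, chr3:19804651-19804677, minus strand: ggtcacattAACCCAGCGgtgacattt
PIP2A second motif, chr3:19804161-19804187, minus strand: accggaattAACCCGGCAaggagtttc
GAMMA-TIP2 first motif, chr3:9723431-9723457, minus strand: ggccacgttAACCCTGCCgttaccttc
GAMMA-TIP2 second motif, chr3:9722917-9722943, minus strand: gcttccatgAACCCAGCCgttgctttc
NIP5;1 first motif, chr4:6432360-6432386, minus strand: gctcacctaAACCCATCActgaccata
NIP5;1 second motif, chr4:6431686-6431712, minus strand: ggatctatgAATCCTGTGagaactcta
SIP1A first motif, chr3:1073807-1073833, minus strand: gctagcttcAATCCTACCggaagcgct

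Protein models ranged from 278 to 328 residues in PIPs, 249 to 268 in TIPs, 275 to 323 in NIPs and 240 to 260 in SIPs. Every PIP gene had 4 coding exons, TIP genes had 1 to 3, NIP genes 4 or 5 and SIP genes 3 or 4. PIP proteins were the most alike, with a median pairwise identity of 75.2% over 78 pairs. The median was 56.0% over 36 TIP pairs, 47.3% over 36 NIP pairs and 34.1% over 3 SIP pairs. The 3 short genes encode 65 to 139 residues. Their deposited RPKM (reads scaled to gene length and to the reads of the library) was at most 0.03 in every library, so they are not described further.

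Levels per kilobase spread over several orders of magnitude among the 37 genes. GAMMA-TIP2 (TIP1;2), a vacuolar channel of vegetative tissue, was the highest member in both groups, with 1184, 1271 and 1481 RPKM in the RNAi libraries and 1181, 1125 and 1124 RPKM in Col-0. GAMMA-TIP1 (TIP1;1), its close relative, ranked 2 among the 37 genes in both groups, and PIP2A (PIP2;1), a major water channel of roots and guard cells, ranked 3. DELTA-TIP (TIP2;1), a tonoplast channel that the description rule misses, averaged 813.3 ± 262.8 RPKM in the RNAi line and 743.9 ± 30.1 RPKM in Col-0 (SD, n = 3 each), above GAMMA-TIP1 and PIP2A. The next ranks were taken by PIP1B, PIP3A (PIP2;7), PIP1C, PIP1A and PIP2B, whose means lay between 279.1 and 399.8 RPKM in the RNAi line and between 329.3 and 410.6 RPKM in Col-0. In the RNAi line the means of PIP1B, PIP3A and PIP1C differed by less than their SDs, whereas those of PIP1A and PIP2B differed by more than theirs. NIPs were far lower, with a highest level of 28.4 RPKM for NIP5;1 in an RNAi library. In Col-0 the highest NIP mean was that of NLM1 (NIP1;1), at 20.7 RPKM, against 15.6 RPKM for NIP5;1.

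**Figure D1:**
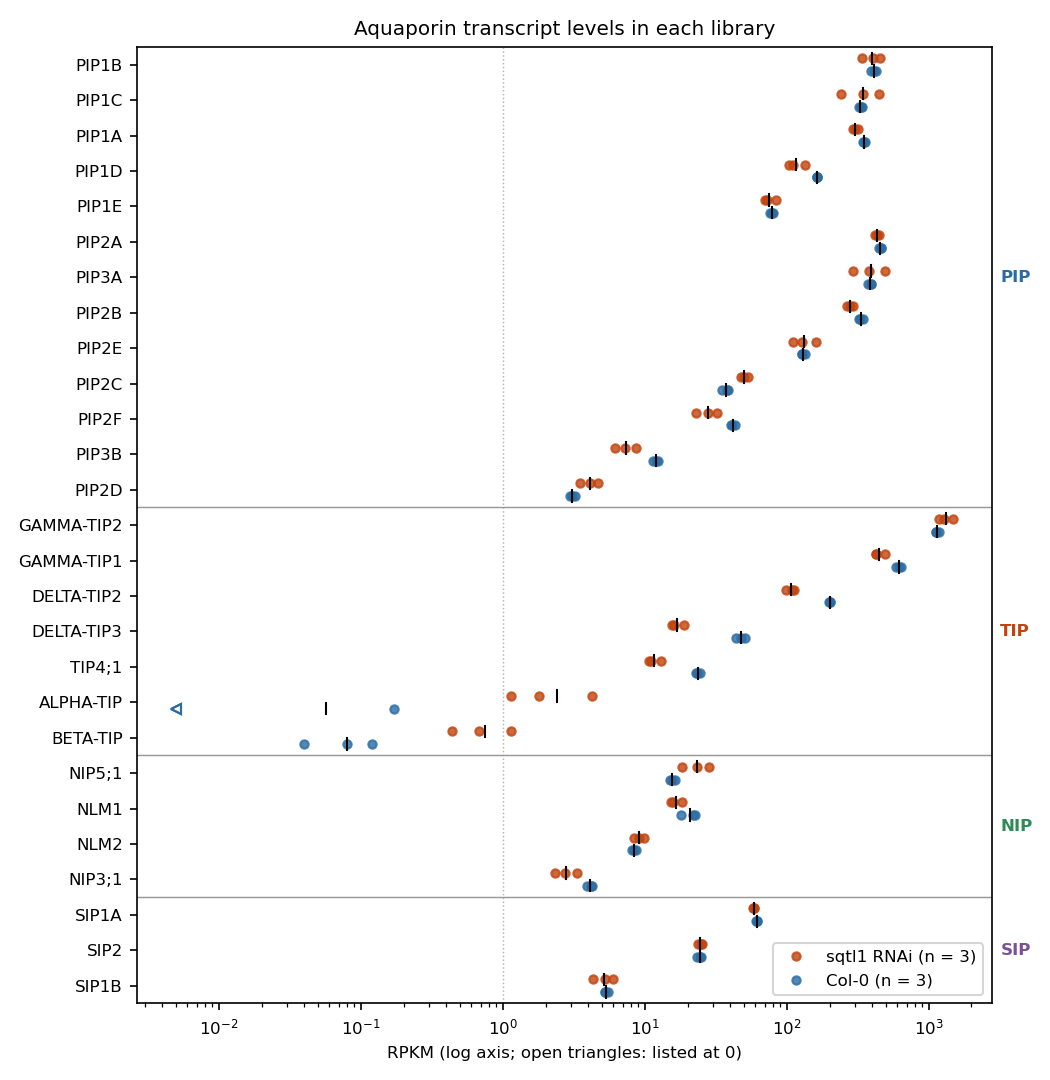
RPKM on a log axis of the 26 aquaporin genes tested and of BETA-TIP in each library, the 3 sqtl1 RNAi libraries above the 3 Col-0 libraries for each gene, with black ticks at the group means, a dotted line at 1 RPKM and open triangles for values listed at 0. DELTA-TIP2, DELTA-TIP3 and TIP4;1 lie left of Col-0 in all RNAi libraries, and ALPHA-TIP and BETA-TIP lie right of it.

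The summed level of the members did not separate the groups, although single genes did. Summed PIP transcripts reached 2212, 2545 and 2930 RPKM in the RNAi libraries and 2761, 2728 and 2702 RPKM in Col-0. Summed TIP transcripts reached 1750, 1837 and 2104 RPKM in the RNAi libraries and 2049, 2004 and 2036 RPKM in Col-0. In both sums the RNAi values lay on both sides of Col-0, with replicate 1 lowest and replicate 3 highest. PIPs made up 55.6% ± 1.55 of the members' RPKM in the RNAi line and 55.7% ± 0.32 in Col-0 (SD, n = 3 each). TIPs made up 41.3% ± 1.11 in the RNAi line and 41.4% ± 0.304 in Col-0 (SD, n = 3 each). With DELTA-TIP added, TIPs exceeded PIPs, at 49.98% ± 0.911 in the RNAi line and 49.1% ± 0.296 in Col-0, and PIPs made up 47.4% ± 0.566 in the RNAi line and 48.4% ± 0.241 in Col-0 (SD, n = 3 each). Summed NIPs averaged 53.2 ± 7.12 RPKM in the RNAi line and 50.5 ± 1.97 RPKM in Col-0, and summed SIPs 88.4 ± 0.916 RPKM in the RNAi line and 91.1 ± 1.65 RPKM in Col-0. In bulk seedlings, fewer cells of a type and less RNA per cell cannot be told apart.

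**Figure D2:**
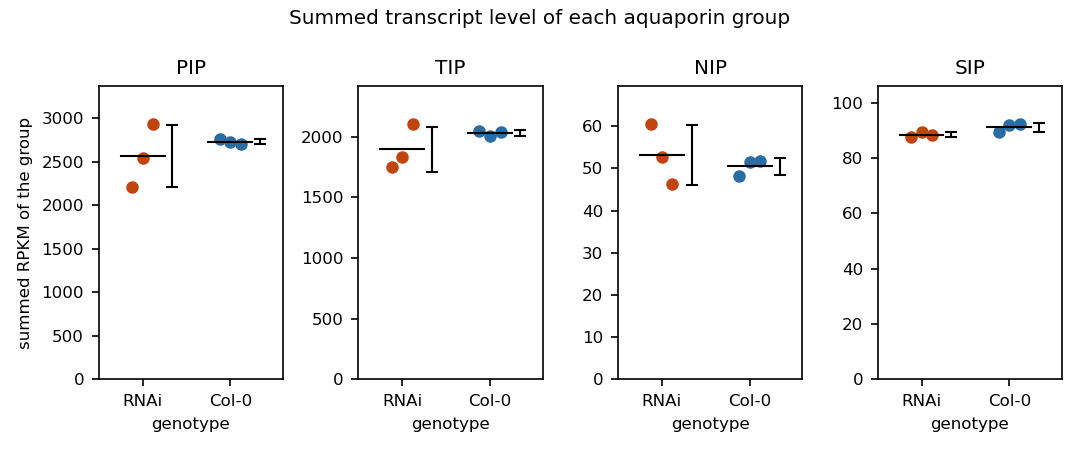
Summed RPKM of each aquaporin group per library, sqtl1 RNAi left of Col-0, with the mean as a line and the SD of 3 libraries as a bar beside the points. The RNAi values of PIP, TIP and NIP spread to both sides of Col-0.

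Each gene was tested with limma on log2(RPKM + 1) within a fit over all 19458 genes that averaged at least 1 RPKM, and a gene was called at a Benjamini-Hochberg adjusted p under 0.05. Of the 37 members, 26 passed the filter on low values, and 11 (3 TIPs, 5 NIPs and the 3 short genes) did not. Among the 26, 4 were higher and 11 lower in the RNAi line, and 11 were not called. ALPHA-TIP, 1 of the 4, passed the filter only through its RNAi level, so its call is no support for a count. The called share of 57.7% lies near the 52.6% of all genes tested. The lower share was 42.3% for the members, against 27.5% for all genes tested, and the higher share 15.4%, against 25.2%. Values of the groups did not overlap for 17 members, 65.4% of those tested, against 64.1% of all genes tested. The median log2 fold change was -0.06 over the members tested and -0.01 over all genes tested.

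These counts depend on how libraries are scaled. RPKM times gene length summed to between 926820 and 979309 in the RNAi libraries and between 1051600 and 1071469 in Col-0. With all libraries brought to the same total, fold changes of all genes shifted up by a median of 0.143, and the members split into 6 higher and 8 lower. For all genes tested the called shares were then 39.8% higher and 18% lower. PIP1A, PIP2B and NLM1 lost their call under this scaling, and GAMMA-TIP2 and NLM2 were called higher. The medians of the PIP, NIP and SIP groups turned positive with it, whereas that of the TIPs stayed negative.

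**Figure D3:**
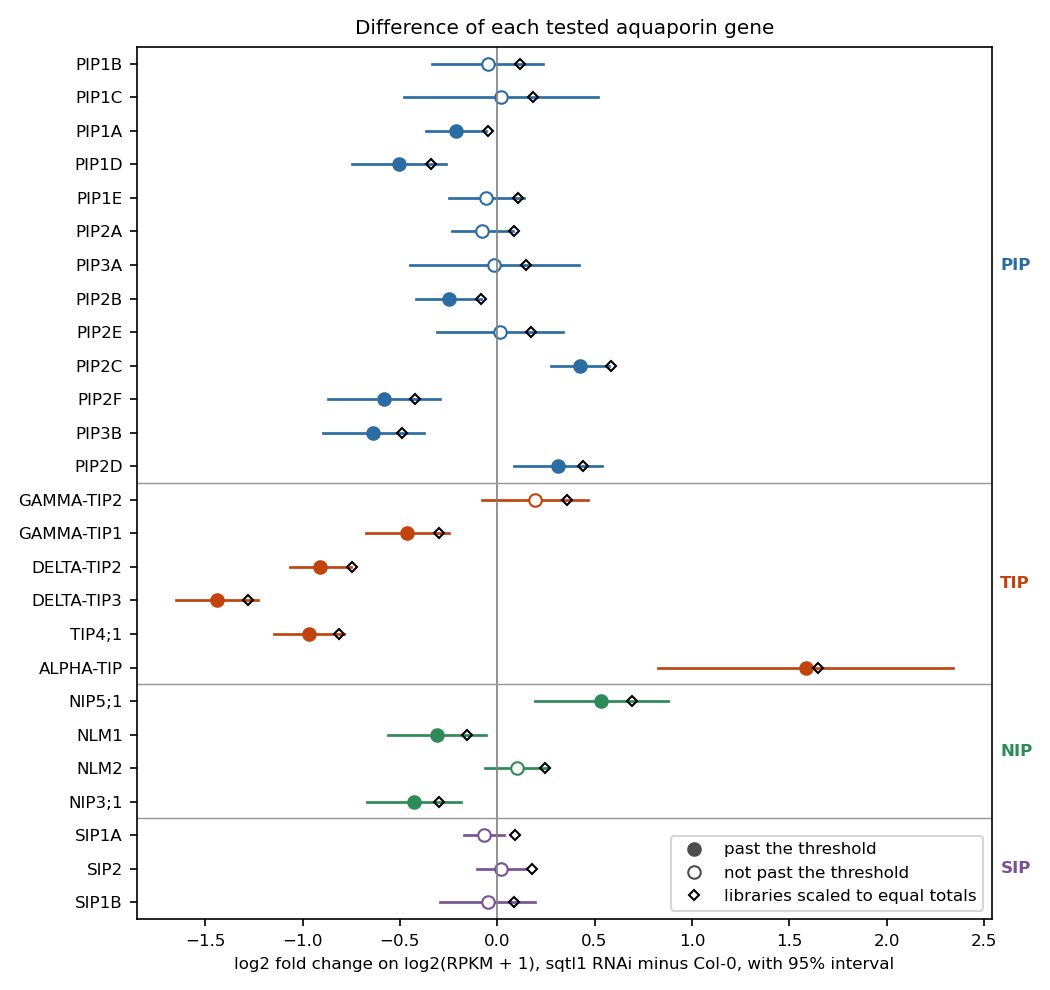
Log2 fold change on log2(RPKM + 1), sqtl1 RNAi minus Col-0, of the 26 genes tested, with 95% intervals, filled where past the threshold, and with diamonds for the values after scaling all libraries to equal totals. DELTA-TIP3 has the lowest value and ALPHA-TIP the highest, and the diamonds of several PIPs and SIPs lie on the other side of 0.

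The 3 largest decreases of the family, on the log2 scale, were TIPs. Of 6 TIPs tested, 4 fell, 1 rose and 1 was not called (83.3% called, against 52.6% of all genes tested). The 1 that rose, ALPHA-TIP, passed the filter only through its RNAi level, so its call is no support for this share. The median log2 fold change of these 6 TIPs was -0.68, and -0.91 without ALPHA-TIP, and the sign was negative under every scaling tried. DELTA-TIP, the tonoplast gene that the description rule misses, is outside these counts and medians. It was tested and not called (log2 fold change 0.08 ± 0.226 SE, limma adjusted p = 0.79), so the decrease does not extend to every TIP. DELTA-TIP3 (TIP2;3), a root channel for water and ammonia, had 15.6, 16.1 and 18.9 RPKM in the RNAi libraries, against 50.6, 43.9 and 47.9 RPKM in Col-0. Every RNAi value lay below every Col-0 value, a 2.81-fold lower mean (log2 fold change -1.44 ± 0.0876 SE, limma adjusted p = 0.000172). DELTA-TIP2 (TIP2;2), whose protein is 92.0% identical to DELTA-TIP3, had 108.1, 112.7 and 99.0 RPKM in the RNAi libraries, against 202.9, 196.8 and 202.3 RPKM in Col-0. Its groups did not overlap either, and its mean was 1.88-fold lower (log2 fold change -0.91 ± 0.065 SE, limma adjusted p = 0.000255).

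TIP4;1, another channel known mainly from roots, had 13.0, 11.1 and 10.7 RPKM in the RNAi libraries, against 22.9, 24.6 and 23.3 RPKM in Col-0. All 3 RNAi values lay below Col-0, and the mean was 2.03-fold lower (log2 fold change -0.97 ± 0.0757 SE, limma adjusted p = 0.000317). GAMMA-TIP1 was lower by a smaller factor, with a mean of 446.7 ± 39.9 RPKM in the RNAi line and 614.2 ± 23.7 RPKM in Col-0 (SD, n = 3 each; log2 fold change -0.46, limma adjusted p = 0.00591). GAMMA-TIP2 was the TIP not called among the members tested. Its RNAi values, given above, all lay above Col-0 by a small margin (log2 fold change 0.19 ± 0.114 SE, limma adjusted p = 0.198), and it was called higher under total scaling (0.36), quantile normalization (0.58) and library weights (0.16).

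Ratios within a library describe the balance of each pair. GAMMA-TIP1 stood to GAMMA-TIP2 at ratios of 0.358, 0.333 and 0.333 in the RNAi libraries and 0.501, 0.545 and 0.568 in Col-0. DELTA-TIP3 stood to DELTA-TIP2 at 0.144, 0.143 and 0.191 in the RNAi libraries and 0.249, 0.223 and 0.237 in Col-0. Neither ratio overlapped between groups. For the gamma pair this follows from the levels already given. For the delta pair a two-sided exact permutation test gave p = 0.1, the smallest that 3 libraries against 3 allow. Any full separation gives that value, so the test adds nothing to the lack of overlap. A ratio within a library does not depend on its scaling.

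Markers of root cell types were set beside the TIPs, since DELTA-TIP2, DELTA-TIP3 and TIP4;1 are known from roots. Of 6 endodermis markers 3 fell (CASP1, CASP2 and ESB1) and CASP5 rose, with summed levels of 162 to 167 RPKM in the RNAi libraries and 200.1 to 239.3 RPKM in Col-0. Of 4 stele markers, SHR rose and PHO1 fell, with sums of 59.1 to 67.7 RPKM in the RNAi libraries and 67.1 to 75.3 RPKM in Col-0. None of the 4 root hair markers was called. None of these 14 markers was at 0, and their part in the TIP result was not tested. Among all genes tested, 52.6% were called in either direction.

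ALPHA-TIP (TIP3;1) and BETA-TIP (TIP3;2), the channels of protein storage vacuoles in seeds, were the TIPs that stood above Col-0 in every RNAi library at low levels. ALPHA-TIP had 4.28, 1.79 and 1.14 RPKM in the RNAi libraries, whereas in Col-0 it was listed at 0 in replicates 1 and 3 and had 0.17 RPKM, about 7 reads, in replicate 2. Its fitted log2 fold change was 1.58 ± 0.316 SE (limma adjusted p = 0.00652). It was tested only because its RNAi level carried it over the filter, and the size ranged from 0.53 to 3.96 over the settings that tested it. Without RNAi replicate 1, its mean fell under the filter and it was not tested. BETA-TIP had 1.14, 0.68 and 0.44 RPKM in the RNAi libraries, against 0.08, 0.12 and 0.04 RPKM in Col-0. It did not reach the filter of 1 RPKM, and without a filter it was called higher (log2 fold change 0.68 ± 0.155 SE, limma adjusted p = 0.0363).

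Both genes were highest in RNAi replicate 1 and lowest in replicate 3. All 4 seed markers (CRA1, SESA1, OLEO1 and PER1, for storage proteins, an oil body protein and a peroxiredoxin) rose too, in the same order of libraries. They too passed the filter only through their RNAi levels. Their summed levels were 85.2, 25.4 and 15.2 RPKM in the RNAi libraries and 0.12 to 1.06 RPKM in Col-0, and their part in the result was not tested. ALPHA-TIP and BETA-TIP proteins are 86.4% identical. The 200 bases before each start, both on the plus strand, are shown because each holds the RY element CATGCA, a motif known from genes of seed maturation, written in capitals.
ALPHA-TIP, chr1:27521744-27521943: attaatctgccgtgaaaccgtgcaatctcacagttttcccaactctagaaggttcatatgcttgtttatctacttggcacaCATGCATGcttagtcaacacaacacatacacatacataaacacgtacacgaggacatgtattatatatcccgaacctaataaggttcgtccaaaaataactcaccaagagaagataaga
BETA-TIP, chr1:6129825-6130024: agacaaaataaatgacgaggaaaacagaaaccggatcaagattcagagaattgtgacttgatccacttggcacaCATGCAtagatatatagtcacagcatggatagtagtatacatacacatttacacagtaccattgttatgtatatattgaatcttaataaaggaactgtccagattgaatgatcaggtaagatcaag
In ALPHA-TIP 2 copies overlap on opposite strands, 119 and 117 bases before the start, and in BETA-TIP 1 copy lies 126 bases before it.

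Of 13 PIPs, all tested, 5 fell, 2 rose and 6 were not called (53.8% called, against 52.6% of all genes tested). Their median log2 fold change was -0.06, and 0.11 after scaling to equal totals. The decreases of at least 0.5 log2 units were PIP1D, PIP2F and PIP3B. PIP1D (PIP1;5), a PIP1 member, had 103.5, 109.9 and 134.7 RPKM in the RNAi libraries, against 163.7, 164.5 and 163.6 RPKM in Col-0. All RNAi values lay below the narrow Col-0 range (log2 fold change -0.50 ± 0.101 SE, limma adjusted p = 0.00663).

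PIP2F (PIP2;4), a root water channel, had 22.8, 27.8 and 32.4 RPKM in the RNAi libraries, against 40.6, 42.9 and 41.1 RPKM in Col-0 (log2 fold change -0.58 ± 0.119 SE, limma adjusted p = 0.0073). PIP3B (PIP2;8), a member of low level, had 6.21, 7.25 and 8.71 RPKM in the RNAi libraries, against 12.1, 11.4 and 12.3 RPKM in Col-0 (log2 fold change -0.64 ± 0.108 SE, limma adjusted p = 0.00358). Neither gene overlapped between groups, and in both RNAi replicate 3 lay nearest to Col-0. PIP1D, PIP2F and PIP3B kept their call in all 15 alternative settings.

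PIP1A (PIP1;1), an abundant PIP1, was lower by a small margin, with 303 ± 13.2 RPKM in the RNAi line and 350.9 ± 4.77 RPKM in Col-0 (SD, n = 3 each; log2 fold change -0.21, limma adjusted p = 0.0311). This call was lost when any 1 Col-0 library or RNAi replicate 2 was left out, with limma adjusted p between 0.0947 and 0.113, and under total scaling (-0.05). PIP2D (PIP2;5), known to rise in cold and drought, was the other PIP called higher besides PIP2C. It averaged 4.1 ± 0.601 RPKM in the RNAi line and 3.09 ± 0.13 RPKM in Col-0 (SD, n = 3 each; log2 fold change 0.31, limma adjusted p = 0.0305). Without any 1 of the libraries other than RNAi replicate 3, its limma adjusted p lay between 0.0523 and 0.0988.

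The 6 PIPs not called were PIP1B, PIP1C, PIP1E, PIP2A, PIP2E and PIP3A. PIP2A had 419.8, 433.3 and 446.8 RPKM in the RNAi libraries and 462.7, 458.9 and 448.5 RPKM in Col-0. Its groups just failed to overlap (log2 fold change -0.08, 95% interval -0.23 to 0.08, limma adjusted p = 0.368). PIP1C (PIP1;3) had 241.3, 346.9 and 443.5 RPKM in the RNAi libraries and 336.7, 320.5 and 330.7 RPKM in Col-0, so that the RNAi libraries lay on both sides. PIP3A had 293.0, 381.8 and 494.2 RPKM in the RNAi libraries and 391.4, 371.7 and 392.1 RPKM in Col-0, again on both sides. The intervals of the log2 fold change, -0.48 to 0.52 for PIP1C and -0.45 to 0.42 for PIP3A, leave room for a change in either direction.

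Spread within the RNAi line followed 1 order in nearly all PIPs. RNAi replicate 3 was highest and replicate 1 lowest in 12 of 13 PIPs (92.3%), against 31.7% of all genes tested, with PIP2D as the exception. The median log2 difference of the PIPs from the Col-0 mean was -0.28, -0.08 and 0.11 in RNAi replicates 1 to 3. For the TIPs tested it was -0.67, -0.68 and -0.66, and for all genes tested -0.03, 0.00 and 0.00. The near-equal TIP medians join members of unlike order. Of 6 TIPs tested, 2 (33.3%) had the order of the PIPs, whereas ALPHA-TIP and TIP4;1 had replicate 1 highest and replicate 3 lowest. The median coefficient of variation over the PIPs was 14.7% in the RNAi line and 3.0% in Col-0, and over all genes tested 8.88% in the RNAi line and 4.47% in Col-0.

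The RNAi libraries were also ordered outside the family, there with replicate 3 nearest to Col-0. Replicate 3 was not the nearest in every PIP. For PIP1C the log2 differences from the Col-0 mean were -0.45, 0.08 and 0.43 in the RNAi libraries. On the first principal component of all genes, which held 82.4% of the variance, the RNAi libraries scored 49.8, 42.6 and 21.7 and the Col-0 libraries -38.8, -36.9 and -38.4. All 4 mesophyll markers (RBCS1A, LHCB1.2, LHCB2.1 and LHCA4) fell, with summed levels of 9968, 11020 and 15974 RPKM in the RNAi libraries and 24228 to 25896 RPKM in Col-0. Of the 4 guard cell markers, KAT1 fell, with sums of 3.11 to 6.77 RPKM in the RNAi libraries and 7.28 to 8.69 RPKM in Col-0. Among all genes tested, 27.5% were lower. The part of these mesophyll and guard cell markers in the PIP values was not tested. Pollen markers summed to 0.17 to 0.31 RPKM in the RNAi libraries and 0.35 to 0.43 RPKM in Col-0, and leaf and root markers were present in every library, as the whole-seedling label says. Estimated depth was 43.7 to 46.9 M (mega) reads in the RNAi libraries and 37.9 to 49.9 M in Col-0.

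**Figure D4:**
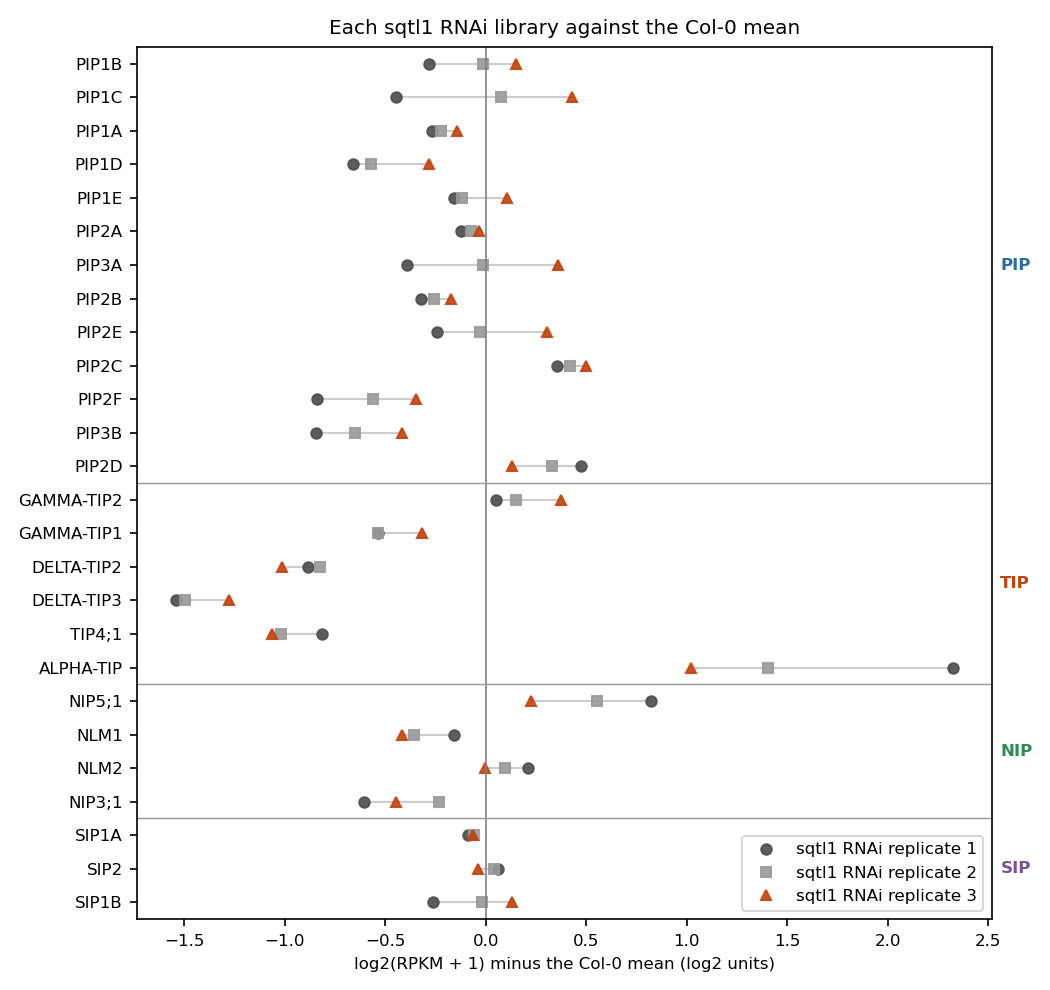
Difference of each sqtl1 RNAi library from the Col-0 mean on log2(RPKM + 1), in log2 units, for the 26 genes tested, with a grey line joining the 3 libraries of a gene. Replicate 3 (triangles) lies rightmost and replicate 1 (circles) leftmost in 12 of 13 PIPs. The opposite order is seen in PIP2D, ALPHA-TIP, TIP4;1, NIP5;1, NLM1, NLM2 and SIP2, which include genes called higher, called lower and not called.

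PIP2B and PIP2C are neighbours on chromosome 2 that differed in opposite directions. PIP2B (PIP2;2, 15613368 to 15615022, minus strand) and PIP2C (PIP2;3, 15617635 to 15619155, plus strand) start 2612 bases apart and are transcribed away from each other, with 0 coding genes between. PIP2B is an abundant root water channel, and PIP2C was first isolated as the desiccation-responsive gene RD28. Their proteins are 96.8% identical and their coding sequences 94.8%. The 250 bases before each start are shown because the pair shares most of its coding sequence but differed in direction, and neither holds any of the motifs searched.
PIP2B, chr2:15615023-15615272, minus strand: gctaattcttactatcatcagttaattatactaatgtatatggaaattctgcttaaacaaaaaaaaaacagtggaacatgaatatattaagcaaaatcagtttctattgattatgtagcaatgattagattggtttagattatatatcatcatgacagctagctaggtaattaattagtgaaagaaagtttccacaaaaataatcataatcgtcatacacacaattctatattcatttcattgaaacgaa
PIP2C, chr2:15617385-15617634, plus strand: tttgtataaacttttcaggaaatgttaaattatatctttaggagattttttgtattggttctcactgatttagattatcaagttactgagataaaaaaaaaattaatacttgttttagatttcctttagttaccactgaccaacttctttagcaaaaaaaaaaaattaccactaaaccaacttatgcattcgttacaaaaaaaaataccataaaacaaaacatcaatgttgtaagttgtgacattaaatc

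PIP2C had 47.9, 50.2 and 53.0 RPKM in the RNAi libraries, against 35.1, 38.6 and 38.0 RPKM in Col-0. All RNAi values lay above Col-0 (log2 fold change 0.43 ± 0.0615 SE, limma adjusted p = 0.002), and the call held in all 15 alternative settings. PIP2B had 265.1, 277.7 and 294.5 RPKM in the RNAi libraries, against 322.7, 344.6 and 328.4 RPKM in Col-0. All RNAi values lay below Col-0 (log2 fold change -0.25 ± 0.0694 SE, limma adjusted p = 0.0227). The PIP2B call was lost without any 1 Col-0 library or without RNAi replicate 2, with limma adjusted p between 0.0588 and 0.0953, and under total scaling (-0.09).

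Within a library, PIP2C stood to PIP2B at ratios of 0.181, 0.181 and 0.18 in the RNAi libraries and 0.109, 0.112 and 0.116 in Col-0. The ratios did not overlap, which follows from the levels of the pair. These were the 2 members with any share of reads mapping to more than 1 place in the deposited table, 0.212% for PIP2B and 0.23% for PIP2C. Reads between such close copies can be misassigned, so the size of the change in PIP2C is uncertain to that extent.

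**Figure D5:**
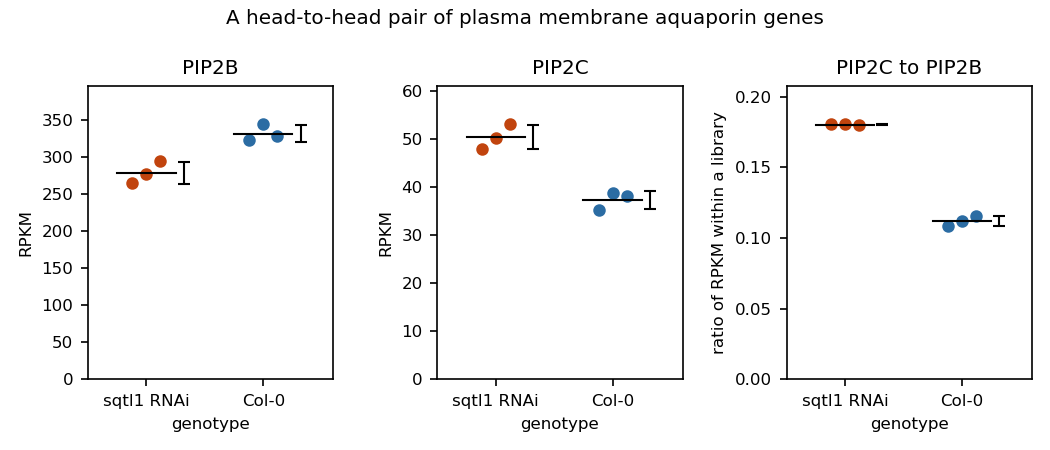
RPKM of PIP2B and PIP2C and their ratio within each library, sqtl1 RNAi left of Col-0, with the mean as a line and the SD of 3 libraries as a bar. PIP2B is lower and PIP2C higher in the RNAi line, and the ratio is near 0.18 in all 3 RNAi libraries and 0.109 to 0.116 in Col-0.

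Of 9 NIPs, 4 passed the filter, of which 1 rose, 2 fell and 1 was not called (75% called, against 52.6% of all genes tested). NIP5;1, the root boric acid channel, had 28.4, 23.4 and 18.4 RPKM in the RNAi libraries, against 15.5, 16.2 and 15.1 RPKM in Col-0. All RNAi values lay above Col-0, with replicate 1 highest (log2 fold change 0.54 ± 0.142 SE, limma adjusted p = 0.0194). Without any 1 Col-0 library or RNAi replicate 2, its limma adjusted p lay between 0.0507 and 0.0671. Summed root hair markers had the same order, with 66.1, 59.5 and 30.3 RPKM in the RNAi libraries and 32.9 to 40.3 RPKM in Col-0. Unlike NIP5;1, they lay on both sides of Col-0, and none of the 4 was called. Summed boron exporters had that order too (74.7, 69.3 and 60.15 RPKM in the RNAi libraries, 63.3 to 67.7 RPKM in Col-0), but not every exporter did. Of the 4 tested, BOR2, the highest (40.8, 30.9 and 24.2 RPKM in the RNAi libraries), and BOR4 had it. BOR1 was highest in RNAi replicate 2 and BOR3 in RNAi replicate 3. RNAi replicate 1 was the highest of its line in 7627 of 19458 genes tested. The part of the root hair markers in the NIP5;1 value was not tested.

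NIP3;1, known for arsenite transport, averaged 2.81 ± 0.499 RPKM in the RNAi line and 4.1 ± 0.166 RPKM in Col-0 (SD, n = 3 each; log2 fold change -0.43, limma adjusted p = 0.0123). NLM1 (NIP1;1), a channel through which arsenite and antimonite enter roots, averaged 16.5 ± 1.67 RPKM in the RNAi line and 20.7 ± 2.41 RPKM in Col-0 (SD, n = 3 each). Its groups overlapped, and its call was near the threshold (log2 fold change -0.31, limma adjusted p = 0.0436). It was lost without Col-0 replicate 2 or 3 or RNAi replicate 2 or 3, with limma adjusted p between 0.0867 and 0.141, and under total scaling (-0.15). NLM2 (NIP1;2), related to NLM1, averaged 9.12 ± 0.752 RPKM in the RNAi line and 8.43 ± 0.296 RPKM in Col-0 and was not called.

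The 5 NIPs under the filter were at most 0.95 RPKM in any library. NIP6 (NIP6;1), a boric acid channel of shoot nodes, averaged 0.827 ± 0.15 RPKM in the RNAi line and 0.63 ± 0.167 RPKM in Col-0 (SD, n = 3 each). NIP7;1, known from anthers, NIP2;1, known to be induced in oxygen-starved roots, and NLM5 (NIP4;2) and NIP4;1, known from pollen, were each at most 0.57 RPKM. Of the TIPs, GAMMA-TIP3 (TIP1;3) and TIP5;1, known from pollen, were at most 0.03 RPKM, no more than about 1 read.

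SIPs were the group without a call. SIP1A (SIP1;1) had 57.8, 59.0 and 58.9 RPKM in the RNAi libraries and 60.7, 61.9 and 61.9 RPKM in Col-0. The groups did not overlap, yet the difference was small (log2 fold change -0.07, 95% interval -0.17 to 0.03, limma adjusted p = 0.219), and its sign turned under total scaling (0.09) and quantile normalization (0.01). SIP2 averaged 24.7 ± 0.947 RPKM in the RNAi line and 24.3 ± 0.876 RPKM in Col-0, and SIP1B (SIP1;2) 5.16 ± 0.829 RPKM in the RNAi line and 5.34 ± 0.159 RPKM in Col-0 (SD, n = 3 each).

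The RY element CATGCA was the only 1 of 3 motifs found in the members' promoters. Searched on both strands of the 250 bases before each start, it lay in 10 of 37 members (27%), against 8.43% of 27443 promoters of that length in RefSeq TAIR10.1. They were PIP1A, PIP1D, PIP2F, PIP3A, PIP3B, GAMMA-TIP2, ALPHA-TIP, BETA-TIP, NLM1 and NIP6. Of these, 5 fell, 1 rose, 2 were not called and 2 were not tested. The 1 that rose was ALPHA-TIP, which passed the filter only through its RNAi level. Among all genes tested, 27.5% were lower and 25.2% higher. The G-box CACGTG was in 0 of 37 members and 6.49% of all promoters, and the evening element AAATATCT in 0 of 37 members and 4.79% of all promoters.

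Other genes of water and boron transport were read against the 52.6% called among all genes tested. Proton pumps, which build the gradients that drive solute and water movement, had 1 of 22 tested genes higher and 4 lower. Their median log2 fold change was -0.02. The largest changes were VHA-E3, a subunit of the vacuolar proton pump, with 37.0 ± 2.24 RPKM in the RNAi line and 59.8 ± 2.5 RPKM in Col-0, and the plasma membrane pump genes AHA11, with 11.4 ± 0.463 RPKM in the RNAi line and 15.1 ± 0.555 RPKM in Col-0, and AHA4, with 1.29 ± 0.167 RPKM in the RNAi line and 1.96 ± 0.0306 RPKM in Col-0 (SD, n = 3 each). Of 10 genes for proteins that phosphorylate, move or degrade PIPs, 1 rose and 2 fell, with a median of 0.04. TSPO, which directs PIP3A to autophagy, had 6.35, 3.78 and 1.79 RPKM in the RNAi libraries, against 0.11, 0.27 and 0.17 RPKM in Col-0 (log2 fold change 1.96, limma adjusted p = 0.00325). It passed the filter only through its RNAi level.

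RMA1, a ubiquitin ligase that acts on PIP2A, had 17.1, 24.5 and 28.6 RPKM in the RNAi libraries, against 33.5, 38.3 and 39.5 RPKM in Col-0 (log2 fold change -0.67, limma adjusted p = 0.0196). The receptor-like kinase gene AT3G02880 averaged 21.6 ± 0.273 RPKM in the RNAi line and 23.9 ± 0.467 RPKM in Col-0 (SD, n = 3 each). Of 4 boron exporters tested, BOR4 fell, with 1.54 ± 0.185 RPKM in the RNAi line and 1.98 ± 0.108 RPKM in Col-0 (SD, n = 3 each), and the others were not called.

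The description rule found 34 of 35 genes on a list of the family. The one it missed was DELTA-TIP, described as an integral protein, which had 566.4, 784.0 and 1090 RPKM in the RNAi libraries and 778.0, 732.7 and 720.9 RPKM in Col-0. It was not called (log2 fold change 0.08 ± 0.226 SE, limma adjusted p = 0.79), and its libraries stood in the order seen in the PIPs. It is not part of the counts and ranks above.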

How the data were processed

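Poly(A) RNA of whole seedlings was sequenced on strand-marked paired-read libraries, per the labels' protocols. The submitters' processing notes name Bowtie2 2.2.6, Trimmomatic 0.39 and the build TAIR10. They give no counting tool and no use of strand. RPKM values are as deposited by the authors, 1 column per library, and 5 lines without a gene were left out. Gene length, in kilobases as its values show, stands in the same deposited table, beside a fraction between 0 and 1 that is named a multiple-mapping ratio per the file headers and was read as the share of multiply mapped reads. Depth was estimated from the steps of low values in genes under 0.4 kb, all within 0.0055 RPKM of a step, where a step may stand for 1 read or 1 pair.

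RNAi and Col-0 libraries were compared by limma 3.58.1 (R 4.3.3), using log2(RPKM + 1) and a variance trend. Benjamini-Hochberg adjustment ran over the 19458 genes that averaged 1 RPKM or more. Because of the pseudocount, log2 fold changes of low genes are understated. Ratios are between group means. P-values measure the spread between these replicates. Alternatives were pseudocounts of 0.1 and 5, no filter or 5 RPKM, other scalings, library weights, a replicate block and leaving out each library. Scaling libraries to equal totals was added after the data were seen.

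Members and lists were chosen with earlier results of these data known. Named with every library are members past the threshold with a log2 fold change of at least 0.5, the highest member of each group, ALPHA-TIP and BETA-TIP. PIP2B, PIP2C, PIP1C, PIP3A, DELTA-TIP, TSPO and RMA1 were given by library after their values were seen. From each transport list, up to 3 called genes are named, and from the marker lists those called. For 1 marker gene, left out of its list, the result is not reported here. Of 38194 identifiers, 37898, all 37 members among them, matched the RefSeq table of TAIR10.1, which gave names, coordinates, coding sequence and promoters. All coordinates are those of TAIR10.1. Protein lengths and identities come from translating the longest coding sequence with Biopython 1.88.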

Additional observations from a re-analysis of the deposited data

How the results depend on the processing

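Of the 15 called members, 10 kept direction and call in every setting that tested them, and none reversed. ALPHA-TIP, 1 of the 10, passed the filter only through its RNAi level and was not tested in every setting, so it is no support for this count. The calls of PIP1A, PIP2B, PIP2D, NIP5;1 and NLM1 were lost in some settings. Of the 11 members not called, 9 changed sign somewhere. Under total scaling the log2 fold change was 0.12 for PIP1B, 0.11 for PIP1E, 0.088 for PIP2A, 0.15 for PIP3A, 0.092 for SIP1A and 0.088 for SIP1B. Under quantile normalization it was -0.0078 for PIP1C, 0.021 for PIP1E, 0.0057 for PIP3A and 0.0057 for SIP1A, and with library weights -0.0198 for PIP2E. With 1 library left out, values ranged from -0.149 to 0.069 for PIP1B, -0.186 to 0.252 for PIP1C, -0.202 to 0.174 for PIP3A, -0.135 to 0.139 for PIP2E, -0.0073 to 0.051 for SIP2 and -0.14 to 0.056 for SIP1B, and the lowest or highest in each came without RNAi replicate 1 or 3, except the lowest of SIP2, without Col-0 replicate 1. The cause was not tested.

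Over all genes, 4894 were higher and 5346 lower, against 7717 higher and 7836 lower with library weights and 7738 higher and 3503 lower under total scaling. With a filter at 5 RPKM, 2 members, 1 PIP and 0 TIPs were higher and 1 NIP lower, since fewer genes were tested. With no filter, 1 PIP, 2 TIPs and 0 NIPs were higher and 1 NIP and 1 SIP lower. With library weights, 2 TIPs and 2 NIPs were higher and 1 SIP lower. Quantile normalization gave 2 TIPs higher, and median ratio scaling 1 NIP lower. Total scaling gave 2 TIPs and 2 NIPs higher, and 3 PIPs and 1 NIP lower. Leaving out 1 library gave 3515 to 5515 higher and 3975 to 6061 lower genes. Among members it gave 2 to 4 higher and 8 to 11 lower, with 1 to 2 PIPs, 0 to 1 TIPs and 0 to 1 NIPs higher, and 3 to 5 PIPs and 1 to 2 NIPs lower.

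The correlations of deviations from the group means between same-numbered libraries were -0.064, 0.093 and 0.02. These low values show no clear pairing by replicate number but cannot exclude it. With a replicate block, 4272 genes were higher and 4762 lower, and 4 members were higher and 8 lower, with 3 PIPs and 1 NIP lower. The calls lost under it were PIP1A (adjusted p = 0.108), PIP2B (0.0709) and NLM1 (0.101). Those of PIP2D, NIP5;1 and NLM1 were lost with no filter, and that of NLM1 with median ratio scaling. Depth limits low values such as 0.17 RPKM of ALPHA-TIP, about 7 reads.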

Other observations

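Of 3 pseudogene rows named after family members, 1 passed the filter. AT2G21020, described as a pseudogene of NIP3;1, had 5.20, 8.24 and 7.60 RPKM in the RNAi libraries, against 12.7, 12.7 and 13.0 RPKM in Col-0, above NIP3;1 itself in every library. It was lower in the RNAi line (log2 fold change -0.80 ± 0.145 SE, limma adjusted p = 0.00447), the same direction as NIP3;1.

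PIP2D and PIP3B, both low PIP2 members, differed in opposite directions. PIP2D stood to PIP3B at ratios of 0.754, 0.571 and 0.4 in the RNAi libraries and 0.267, 0.269 and 0.240 in Col-0, which follows from those directions. The pair was chosen after its values were seen.

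Of 7 genes on the list of boron exporters, 3 lay under the filter and were not tested. BOR5 had 0.05, 0.02 and 0.04 RPKM in the RNAi libraries, against 0.39, 0.43 and 0.44 RPKM in Col-0. AT4G32510, described only as of a bicarbonate transporter family, had 0.64, 0.48 and 0.42 RPKM in the RNAi libraries, against 0.17, 0.14 and 0.19 RPKM in Col-0, and AT5G25430, of the same description, was listed at 0 in every library. These 3 were picked out after their values were seen.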
